A study of Caenorhabditis elegans with 12 samples.

Results

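The 10 genes described here encode small secreted peptides of the Caenorhabditis elegans epidermis: nlp-27, nlp-28, nlp-29, nlp-30, nlp-31 and nlp-34 of the nlp-29 cluster, and cnc-1, cnc-2, cnc-4 and cnc-5 of the caenacin cluster. They were taken by gene name from the 46726 genes of the deposited table, and all 10 were found. RNA-seq libraries of whole worms at day 7 of adulthood were compared between N2, the laboratory wild type, and TG1660, a strain with the xpf-1(tm2842) allele, with 6 libraries in each group. XPF-1 is the catalytic subunit of a nuclease that excises damaged DNA. Both groups were age-synchronized worms on NGM plates with E. coli OP50 as food, each library came from a pool of animals, and the mutant is represented by a single strain. The labels speak of triplicates while each group has 6 libraries, so the p-values rest on a spread between libraries that may be partly technical.

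Peptides of these families are rich in glycine and aromatic residues. Worms make them in the epidermis, the tissue below the cuticle, and are known to raise their transcripts after infection by the fungus Drechmeria coniospora, which pierces the cuticle; several nlp genes also respond to wounding and osmotic stress. Induction of nlp-29 runs through the epidermal receptor DCAR-1, G protein and protein kinase C signalling, the adaptor TIR-1 and the MAP kinase PMK-1, down to the factor STA-2. Induction of cnc-2 is known to depend instead on DBL-1, a ligand of the TGF-beta family, and its receptors and Smads.

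Libraries held 18407182 to 22817135 counts. Reads of xpf-1 numbered 1192 to 1758 in N2 and 213 to 304 in the mutant libraries. The library titled N2 replicate 6 has a genotype label that names the mutant, while its title and strain say N2. It had 1468 xpf-1 reads and was kept in N2. All 9 peptide genes that were tested had the same call with that library left out, and also with it counted as a mutant.

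Levels are CPM, the reads of a gene scaled to a common library size with trimmed-mean (TMM) factors. Fold changes are log2 values of xpf-1 over N2 from edgeR's quasi-likelihood test, and a gene was called when its Benjamini-Hochberg adjusted p over all 14248 tested genes was below 0.05. Of the 10 genes, 9 had enough reads to be tested and cnc-5 did not. nlp-27, nlp-31, nlp-34 and cnc-1 were called higher in xpf-1, nlp-30 was called lower, and nlp-28, nlp-29, cnc-2 and cnc-4 had no call. Over all tested genes 30.1% were called higher and 29.6% lower, 59.7% in all, so the 5 calls among 9 genes were at about the background share. All 6 mutant libraries lay above all 6 N2 libraries for nlp-27, nlp-31 and nlp-34, an arrangement found for 17.9% of all tested genes (38.2% when either direction is counted). The log2 fold change was at least 1 with a call for nlp-27, nlp-31 and cnc-1, where 6.23% of all tested genes reached that. Of these, cnc-1 had few reads and overlapping groups, and its N2 libraries alone would not have been enough for a test. A test against a 1.5-fold change was passed by nlp-27 and nlp-31, where 6.88% of all tested genes passed it as higher. The median log2 fold change of the 9 tested peptide genes was 0.29, beside 0.03 over all tested genes. In whole worms a different share of epidermal cells and a different amount of RNA per cell cannot be told apart, in either direction.

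**Figure D1:**
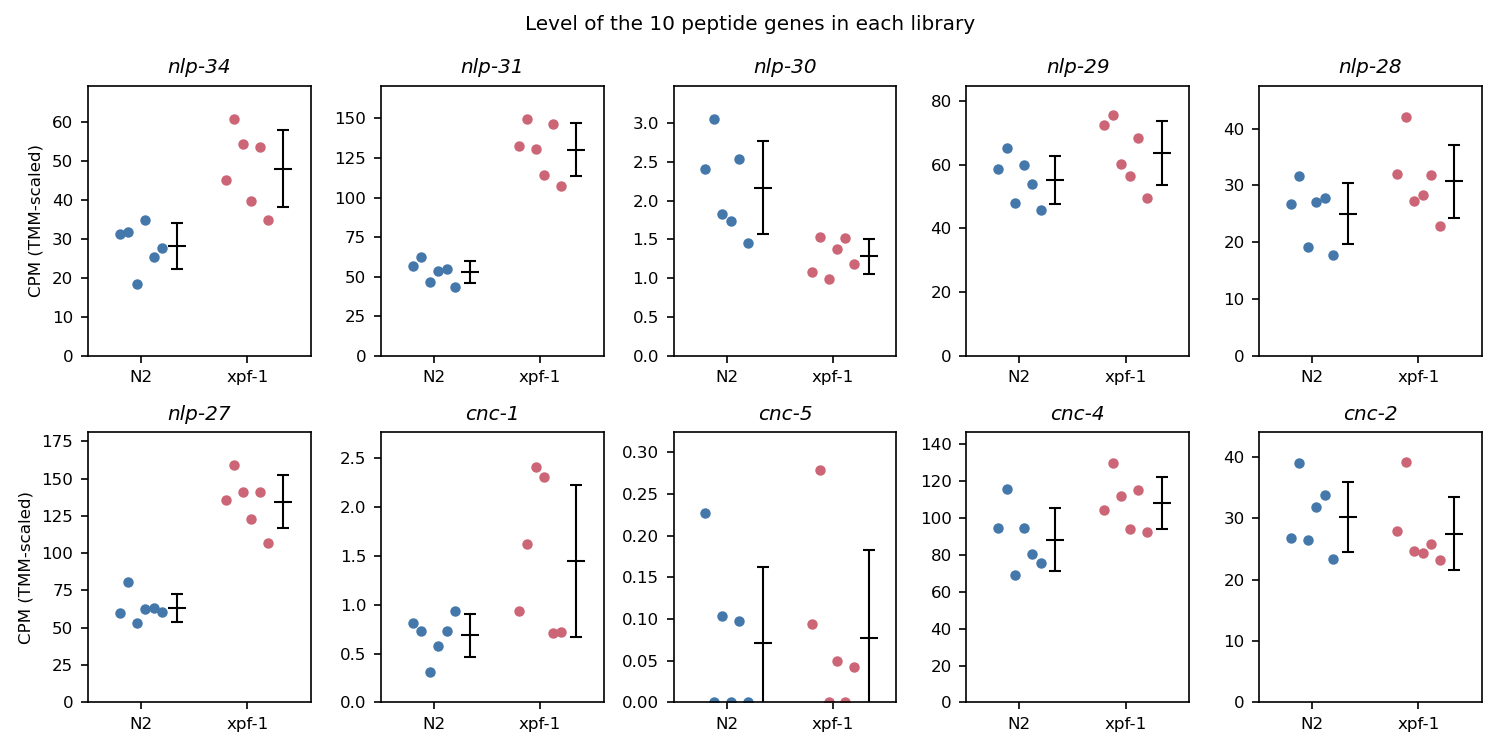
Level of each of the 10 peptide genes in each library, in CPM on a linear axis that starts at 0 and has its own scale in each panel. Points are libraries (6 of N2 and 6 of xpf-1), and the bar beside each group is the mean with SD. The groups stand apart for nlp-31, nlp-27 and nlp-34, and overlap for the other genes.

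The nlp-29 cluster lies on chromosome V of WBcel235, and its 6 genes follow each other over 10.9 kb with no other annotated gene between them. In the deposited table nlp-34 (WBGene00015046) spans 3978829 to 3979134 on the minus strand. The other genes are on the plus strand, in the order nlp-31 (WBGene00003769, 3980055 to 3980617), nlp-30 (WBGene00003768, 3981980 to 3982745), nlp-29 (WBGene00003767, 3984413 to 3984849), nlp-28 (WBGene00003766, 3987900 to 3988314) and nlp-27 (WBGene00003765, 3989091 to 3989770). Each gene has 2 exons, and the gaps between neighbours run from 776 to 3050 bases. No annotated gene overlaps any of the 10 peptide genes, but the peptides are related in sequence, and the split of reads between paralogs is uncertain because the counting of multiply mapping reads was not given in the sources used here.

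nlp-31 encodes a peptide with known antifungal activity in vitro, and it changed the most of the cluster. Its level was 43.6, 54.2 and 62.7 CPM (lowest, median and highest library) in N2, and 107.5, 131.7 and 149.6 CPM in xpf-1. The groups were well apart, with the lowest mutant library above the highest N2 library by a wide margin. Means were 53.1 ± 6.95 and 130.1 ± 16.9 CPM (SD, n = 6 each), a log2 fold change of 1.29 ± 0.10 (SE) with a 95% interval of 1.08 to 1.51 and an adjusted p of 3.37e-08 in edgeR.

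nlp-27, a peptide gene at the other end of the cluster, rose about as much. In N2 the lowest, median and highest libraries had 53.0, 61.4 and 80.5 CPM, and in xpf-1 they had 107, 138.2 and 159.1 CPM. The groups did not overlap. The mean went from 63.3 ± 9.18 to 134.4 ± 17.9 CPM, a log2 fold change of 1.09 ± 0.11 (SE; 95% interval 0.85 to 1.32; edgeR adjusted p 1.26e-06). The gene models differ here: the deposited table starts nlp-27 at 3989091 with 603 bases, and a later annotation release of the same build starts it at 3989378 with 316 bases of exon.

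nlp-34, the only gene of the cluster on the minus strand, stood at 18.4, 29.4 and 34.83 CPM in N2 and at 34.85, 49.3 and 60.8 CPM in xpf-1. The groups just failed to touch, since the highest N2 library and the lowest mutant library had almost the same level. The mean went from 28.2 ± 5.85 to 48.0 ± 9.84 CPM, a log2 fold change of 0.77 ± 0.18 (SE; 95% interval 0.38 to 1.16; edgeR adjusted p 0.0029).

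nlp-29, the gene most used as a reporter of epidermal infection and wounding, was not called. It stood at 45.9, 56.2 and 65.3 CPM in N2 and at 49.4, 64.2 and 75.5 CPM in xpf-1. The groups overlapped, with 3 of the 6 mutant libraries above every N2 library. Its log2 fold change was 0.21 ± 0.11 (SE; 95% interval -0.04 to 0.45; edgeR adjusted p 0.137). Leaving out xpf-1 replicate 6, the lowest mutant library, gave 0.27 with an adjusted p of 0.0154. Of the 12 fits that left out 1 library only this 1 changed the call, and the highest edgeR adjusted p was 0.253.

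nlp-28 lies between nlp-29 and nlp-27 and also had no call. It had 17.7, 26.9 and 31.6 CPM in N2 and 22.8, 30.1 and 42.0 CPM in xpf-1. Again 3 mutant libraries lay above every N2 library and the rest fell inside the N2 range. The log2 fold change was 0.29 ± 0.17 (SE; 95% interval -0.09 to 0.68; edgeR adjusted p 0.171).

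nlp-30, which lies between nlp-31 and nlp-29 and is also known to be induced by infection, was the only gene of the 10 called lower. It was read rarely, with 31 to 54 reads per N2 library and 21 to 33 per mutant library. Levels were 1.45, 2.11 and 3.06 CPM in N2 and 0.991, 1.28 and 1.53 CPM in xpf-1, and 4 of the 6 mutant libraries lay below every N2 library. The log2 fold change was -0.76 ± 0.22 (SE; 95% interval -1.21 to -0.30; edgeR adjusted p 0.0041). Replicates 4 to 6 alone gave -0.48 with an adjusted p of 0.241.

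**Figure D2:**
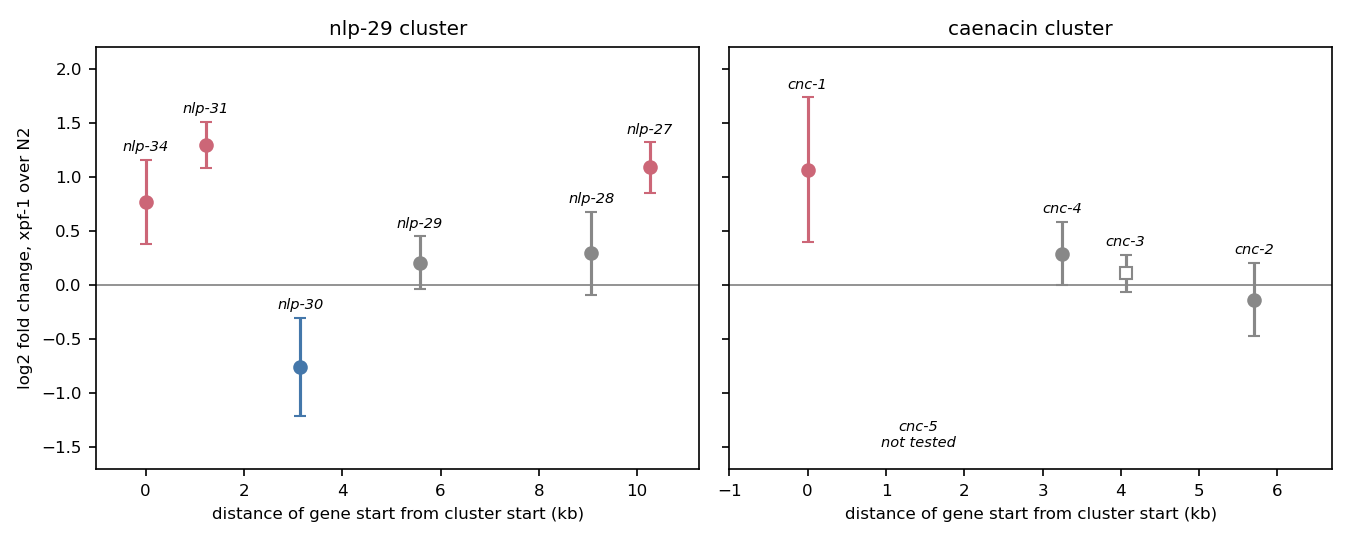
Log2 fold change of the mutant over N2 in both clusters (y axis, 1 point a gene with its 95% interval) against the distance of the gene's start from the start of its cluster in kb (x axis). Red marks genes called higher, blue lower and grey no call; the open square is cnc-3, a caenacin outside the set of 10. In the nlp-29 cluster the genes at both ends are highest, at 0.77 and 1.29 on one side and 1.09 on the other, with -0.76, 0.21 and 0.29 between them.

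Whether neighbours in the nlp-29 cluster moved by different amounts was tested directly within libraries. The log2 ratio of the reads of a pair of genes does not depend on how libraries are scaled, and it was compared between the groups for all 36 pairs of the 9 tested genes by a two-sided exact permutation test. The smallest p that 924 splits allow is 0.0022. After Benjamini-Hochberg adjustment over the 36 pairs, 27 pairs were below 0.05, which is 75.0%, and for 17 pairs, 47.2%, the groups did not overlap. Ratios of these 9 genes to all other tested genes (reads + 0.5), which give a background, had an unadjusted exact permutation p below 0.05 in 60.7% of pairs, and groups without overlap in 32.4%. The same 27 of the 36 pairs had an unadjusted p below 0.05. The background holds only ratios of these 9 genes, so how often other genes part from one another was not tested. Its share of ratios without overlap differed by gene, at 77.5% for nlp-31, 66.1% for nlp-27 and 38.4% for nlp-34. It was 30.4% for nlp-30, 21.1% for cnc-4, 19.7% for nlp-29 and 15.5% for nlp-28, and lower for cnc-1 and cnc-2. Most ratios of nlp-31 or nlp-27 to any gene thus part without overlap, and the size of each ratio is given below.

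nlp-31 and nlp-29 had about equal reads in N2 and parted in the mutant. For each nlp-29 read, N2 libraries had 0.896, 0.966 and 1.02 nlp-31 reads (lowest, median and highest) and mutant libraries had 1.83, 2.08 and 2.18. No library came near the other group. The means were 0.961 ± 0.039 and 2.05 ± 0.138, and the log2 ratio was higher by 1.09 in xpf-1 (exact permutation p 0.0022, adjusted 0.0046). The ratio was steadier than either level: its SD in N2 was 0.039 around 0.961, while nlp-29 itself varied by 7.47 around 55.3 CPM.

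nlp-27 moved against nlp-29 in the same direction, from 1.15 ± 0.114 to 2.12 ± 0.153 reads per nlp-29 read, a log2 difference of 0.89 (exact permutation, adjusted p 0.0046). For nlp-34 the ratio went from 0.509 ± 0.080 to 0.753 ± 0.098, a log2 difference of 0.57 (exact permutation, adjusted p 0.0046). The groups did not overlap in either ratio. nlp-30 moved the other way: nlp-29 had 26.6 ± 5.49 reads per nlp-30 read in N2 and 50.8 ± 10.8 in xpf-1, with no overlap (log2 difference 0.93, exact permutation, adjusted p 0.0046).

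nlp-28 and nlp-29 were not shown to part. For each nlp-29 read there were 0.449 ± 0.049 nlp-28 reads in N2 and 0.480 ± 0.042 in xpf-1, and the ranges overlapped (log2 difference 0.10, exact permutation, adjusted p 0.290). nlp-28 and its close neighbour nlp-27 did part, from 2.59 ± 0.448 to 4.44 ± 0.464 nlp-27 reads per nlp-28 read (log2 difference 0.79, exact permutation, adjusted p 0.0046). nlp-27 and nlp-31, which both rose, differed slightly from each other, from 1.197 ± 0.118 to 1.03 ± 0.046 nlp-27 reads per nlp-31 read, with overlapping ranges (log2 difference -0.21, exact permutation, adjusted p 0.0135).

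**Figure D3:**
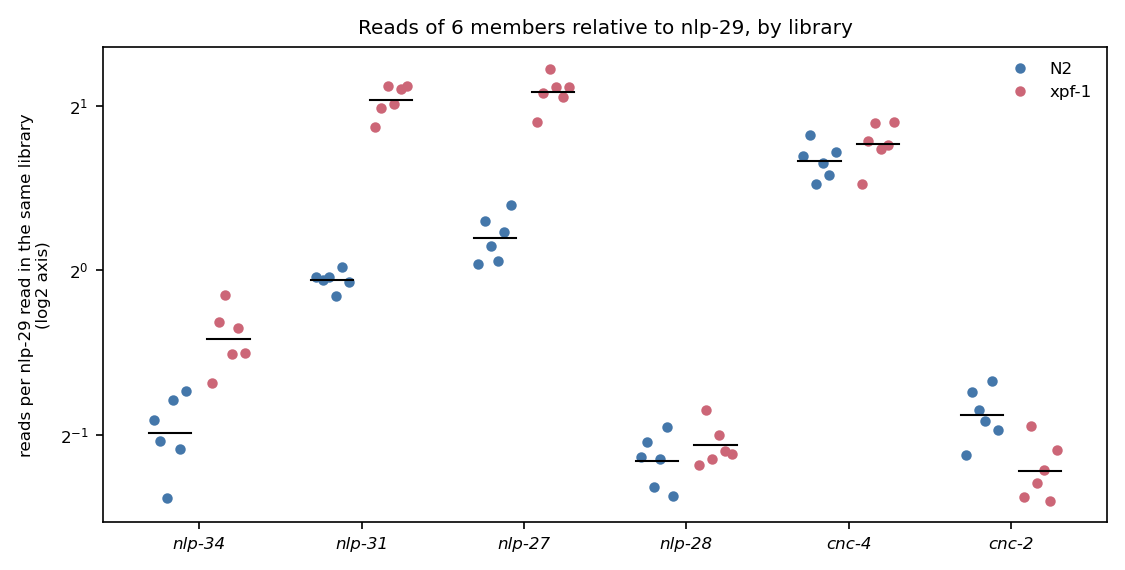
Reads of 6 peptide genes per nlp-29 read in the same library (y axis, log2 scale), for 6 N2 libraries in blue and 6 xpf-1 libraries in red; horizontal bars are means of the log2 ratios. The groups stand apart for nlp-34, nlp-31 and nlp-27, and overlap for nlp-28, cnc-4 and cnc-2.

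The make-up of the cluster's reads shifted with these changes. Summed over its 6 genes the nlp-29 cluster had 227 ± 31.9 CPM in N2 (range 187 to 275) and 408 ± 58.6 CPM in xpf-1 (range 322.6 to 488.5). Within that sum nlp-31 went from 23.4% ± 1.11 to 31.9% ± 1.02 of the reads, and its ranges of 22.2% to 24.9% and 30.6% to 33.3% did not overlap. nlp-29 went from 24.4% ± 0.905 to 15.6% ± 0.921, from 23.3% to 25.6% in N2 to between 14.5% and 17.3% in xpf-1. The rarest gene, nlp-30, took 0.947% of the cluster's reads in N2 and 0.317% in xpf-1 (means of 6 libraries each).

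The caenacin cluster lies elsewhere on chromosome V and spans 6.22 kb. In the deposited table cnc-1 (WBGene00000555, minus strand) runs from 1443970 to 1444286 and cnc-5 (WBGene00000559, plus strand) from 1445381 to 1445832. cnc-4 (WBGene00000558, plus strand) follows from 1447222 to 1447707, and cnc-2 (WBGene00000556, minus strand) from 1449667 to 1450189. cnc-3 lies between cnc-4 and cnc-2 and is the only other annotated gene inside the cluster. Each of the 4 genes has 2 exons.

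cnc-4 and cnc-2, both known to be induced by fungal infection, are the abundant caenacins, and neither was called. cnc-4 had 69.0, 87.5 and 115.7 CPM in N2 and 92.4, 108.2 and 130.0 CPM in xpf-1. The groups overlapped between 92.4 and 115.7 CPM, and every mutant library was above the N2 median. Its log2 fold change was 0.29 ± 0.13 (SE; 95% interval 0.00 to 0.58; edgeR adjusted p 0.0777). Without N2 replicate 2, the highest N2 library, it was 0.39 with an adjusted p of 0.0156. No other of the 12 fits that left out 1 library changed the call, and edgeR adjusted p reached 0.149.

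cnc-2 had 23.4, 29.3 and 39.1 CPM in N2 and 23.2, 25.2 and 39.1 CPM in xpf-1. Its groups covered almost the same range, and 1 mutant library, replicate 2, stood well above the other 5. The log2 fold change was -0.13 ± 0.15 (SE; 95% interval -0.47 to 0.20; edgeR adjusted p 0.482), and without that library it was -0.26 with an adjusted p of 0.0362. That was the only call changed in the 12 fits that left out 1 library, and the highest edgeR adjusted p was 0.812. Set against cnc-4 in the same libraries, cnc-2 went from 0.345 ± 0.049 to 0.254 ± 0.030 reads per cnc-4 read, with overlapping ranges (log2 difference -0.44, exact permutation, adjusted p 0.0082).

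cnc-1 was called higher on few reads, 6 to 20 per N2 library and 13 to 51 per mutant library. It passed the read minimum in all 6 mutant libraries and in 5 N2 libraries. A test needed 6 libraries of any group, so the N2 libraries alone were not enough. Levels were 0.312, 0.733 and 0.937 CPM in N2 and 0.707, 1.28 and 2.41 CPM in xpf-1, and 4 of the 6 mutant libraries lay above every N2 library. The log2 fold change was 1.07 ± 0.33 (SE; 95% interval 0.40 to 1.73; edgeR adjusted p 0.0057). The two-sided exact permutation test on log2(CPM + 0.5) gave 0.0541 for this gene, and replicates 4 to 6 alone gave a log2 fold change of 0.73 with an adjusted p of 0.207.

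cnc-5 was at the limit of detection. It had 9 reads over the N2 libraries (exact Poisson 95% interval 4.12 to 17.1) and 10 over the mutant libraries (4.80 to 18.4), intervals that cover counting error only. Of the libraries, 3 N2 and 2 mutant ones had 0 reads of it, so no difference could be seen at this depth.

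Between the clusters, cnc-4 and nlp-29 were not shown to part. N2 libraries had 1.59 ± 0.117 cnc-4 reads per nlp-29 read and mutant libraries had 1.71 ± 0.156, with overlapping ranges (log2 difference 0.10, exact permutation, adjusted p 0.206). nlp-31 and cnc-4 parted without overlap, from 0.608 ± 0.057 to 1.21 ± 0.053 nlp-31 reads per cnc-4 read (log2 difference 0.99, exact permutation, adjusted p 0.0046).

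Levels of different genes are comparable only per length, here as CPM per kb of the length in the deposited table. In N2 the order was cnc-4 at 216.5 ± 41.4 CPM per kb, nlp-29 at 150.1 ± 20.3, nlp-31 at 119 ± 15.6, nlp-34 at 108.4 ± 22.5, nlp-27 at 105 ± 15.2, cnc-2 at 84.5 ± 16.1 and nlp-28 at 75.2 ± 16.2. These 7 neighbours in the order all had overlapping ranges, although cnc-4 exceeded nlp-29, and nlp-29 exceeded nlp-31, in 6 of 6 libraries. nlp-34 exceeded nlp-27 in 3 of 6, so that order was not resolved. nlp-30, cnc-1 and cnc-5 followed far below, at 3.02 ± 0.836, 2.55 ± 0.808 and 0.345 ± 0.439 CPM per kb.

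In xpf-1 the order changed at the top. nlp-31 came first at 291.7 ± 37.8 CPM per kb, above cnc-4 at 264.9 ± 34.7 in 6 of 6 libraries, and nlp-27 followed at 222.9 ± 29.6. nlp-34 at 184.7 ± 37.9 and nlp-29 at 173.1 ± 27.3 were not resolved, the first exceeding the second in 3 of 6 libraries. At the bottom cnc-1 (5.39 ± 2.89) stood above nlp-30 (1.78 ± 0.320). The places of these genes depend on the gene models. With the lengths of the later annotation cnc-1 was already above nlp-30 in N2, at 3.62 and 3.04 CPM per kb. For nlp-27, with the shorter length of the later annotation its level was 200.3 CPM per kb in N2 and 425.3 in xpf-1, the highest of the 10 in the mutant. Reads were not recounted on the later gene models. Any reads in parts that those models leave out remain in these values and would raise them.

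Within each group most of the peptide genes varied together from library to library, as did other genes named below. The mean deviation of the 9 tested genes from their group means, on the log2 CPM scale, was 0.32 in N2 replicate 2 and 0.33 in xpf-1 replicate 2, the highest of each group. It was lowest in N2 replicate 3 at -0.35 and in xpf-1 replicate 6 at -0.34. All 9 genes were above their group mean in both high libraries and below it in both low ones. These libraries were picked by the mean of the same genes, so their shared sign there is partly built in.

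As a description over the 12 libraries, the deviation of nlp-27 correlated with the mean deviation of the other tested genes at a Pearson r of 0.90, cnc-4 at 0.89, nlp-28 at 0.88, nlp-31 at 0.85, nlp-29 at 0.81, nlp-34 at 0.76 and cnc-2 at 0.75. The rarely read nlp-30 and cnc-1 were looser, at 0.52 and 0.20. These deviations share each library's depth, scaling and pool of worms. The share of all tested genes that reach such an r was not worked out. The likeness is thus not shown to be particular to these genes, and the genes named below reached 0.94 to 0.97. cnc-4 was among the closest to the rest within groups, while its ratio to nlp-31 differed between groups.

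**Figure D4:**
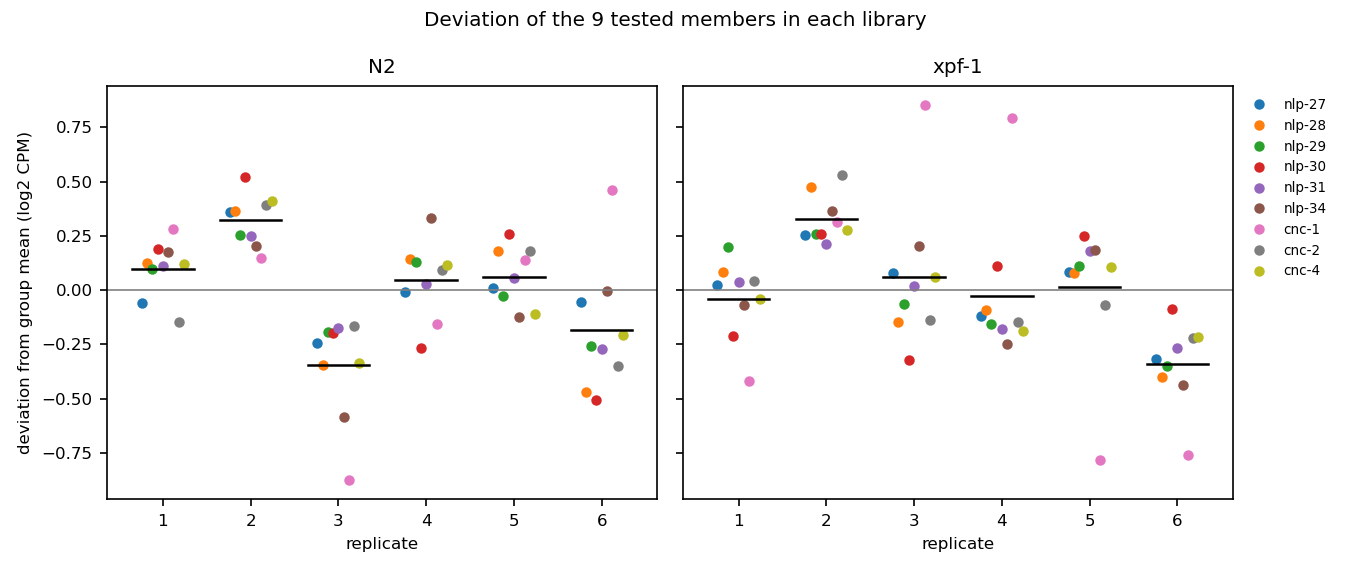
Deviation of each of the 9 tested peptide genes from its group mean, in log2 CPM (y axis), in each library by replicate number (x axis), with N2 on the left and xpf-1 on the right. Colours are genes and black bars are the mean over the genes, highest at 0.32 and 0.33 in replicate 2 of each group. Replicate numbers were not used as pairs.

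The 5 other genes whose deviations were most like the mean of the peptide genes over the 12 libraries were F53A9.6 (Pearson r 0.97), F48C1.9 (0.96), F56D6.8 (0.96), dct-8 (0.95) and Y37D8A.19 (0.94). Between the groups they went different ways. F48C1.9 rose from 49.0 ± 9.36 to 81.3 ± 15.0 CPM (log2 fold change 0.73, edgeR adjusted p 0.0015) and F53A9.6 from 18.5 ± 3.89 to 25.4 ± 4.23 CPM (0.46, adjusted p 0.0084). F56D6.8, dct-8 and Y37D8A.19 were not called, at log2 fold changes of -0.15, 0.12 and 0.27.

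The remaining relatives of both families did not move as a block. For scale, 30.1% of all tested genes were called higher and 29.6% lower. Of 5 other nlp genes of this type, 4 were tested and nlp-32 was not: nlp-25 was called higher at 0.67 (edgeR adjusted p 0.015), nlp-26 lower at -0.45 (0.0401), and nlp-24 and nlp-33 stood at -0.18 and -0.49 without a call. Leaving out xpf-1 replicate 2 took nlp-25 to 0.54 with an adjusted p of 0.0612. The nlp-26 call was lost without any 1 of N2 replicates 2, 3 and 4 or xpf-1 replicates 3, 4 and 6, and nlp-33 passed as lower without N2 replicate 5 or 6 or xpf-1 replicate 1 or 2. Of 7 other caenacins 6 were tested and cnc-9 had no read. cnc-10 was called higher at 0.39 (adjusted p 0.001) and cnc-8 at 0.42 (0.0475), a call lost in 9 of the 12 fits that left out 1 library and kept only without N2 replicate 2, xpf-1 replicate 1 or xpf-1 replicate 6. cnc-7 was called lower at -0.52 (adjusted p 0.00017), from 9.20 ± 1.58 to 6.40 ± 0.567 CPM with no overlap. In replicates 1 to 3 alone cnc-7 and cnc-10 had adjusted p of 0.0968 and 0.106, and with N2 replicate 6 counted as a mutant nlp-25, cnc-8 and cnc-10 had 0.222, 0.449 and 0.0791. The cluster's own cnc-3 had a log2 fold change of 0.11, cnc-11, just outside it, of 0.00, and cnc-6 of 0.07, all without a call.

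Signalling genes tied to nlp-29 were read from a list of 17 genes, all tested. Of these, 10 were called higher and 1 lower, with a median log2 fold change of 0.29. Over all tested genes 30.1% were higher and 29.6% lower, 59.7% in all, with a median of 0.03. The adaptor tir-1 rose most, from 111.4, 119 and 132.2 CPM in N2 to 302, 320.5 and 352.2 CPM in xpf-1, with the groups far apart (log2 fold change 1.42 ± 0.05, edgeR adjusted p 2.82e-21). The kinases downstream of it rose less: nsy-1 by 0.55, sek-1 by 0.47 and pmk-1, the MAP kinase, by 0.49 (all with no overlap between groups). The phosphatase gene vhp-1, a negative regulator of MAP kinases, rose by 0.72 and the pseudokinase gene nipi-3, needed for nlp-29 induction by infection, by 0.62.

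At the start of the same pathway the receptor gene dcar-1 had a log2 fold change of 0.11 and no call, while the G protein gene gpa-12 (0.29), the phospholipase C gene plc-3 (0.51) and the protein kinase C gene tpa-1 (0.44) were called higher. The other phospholipase C gene, egl-8, stood at 0.15 without a call. The scaffold gene rack-1 was called lower at -0.47. At its end neither snf-12, a transporter relative, nor the factor genes sta-2 and elt-3 were called, with log2 fold changes of 0.15, -0.15 and 0.01. The negative regulator dapk-1 was called higher at 0.28. The receptor gene npr-12, on the list though not a known step of nlp-29 induction, stood at -0.20 without a call.

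The DBL-1 pathway that leads to cnc-2 gave 5 higher and 1 lower call among 10 genes, with a median log2 fold change of 0.21. The calls in all were at about the 59.7% called over all tested genes. By direction, 30.1% of all tested genes were higher and 29.6% lower, so the calls of this list also leaned to higher. The ligand gene dbl-1 had -0.24 and no call, the receptor gene daf-4 was called lower at -0.44 and its partner sma-6 had -0.02 and no call. The Smad genes sma-2 and sma-3 were called higher at 0.36 and 0.33, sma-4 at 0.08 was not, and the zinc finger cofactor sma-9 was called higher at 0.66. sma-10, a gene that modulates the receptors, stood at 0.09 without a call. Both crm-1, which promotes the signal, and lon-2, which restrains it, were called higher, at 0.38 and 0.33. With the trend of fold change on gene length removed, sma-9 and crm-1 kept their calls at 0.24 each.

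A list of 10 genes of cuticle furrow and osmotic damage holds the collagens of the annular furrows, whose loss is known to raise nlp-29, and genes of osmotic responses. Of these, 8 were tested, and 5 were called higher and 0 lower, beside 30.1% and 29.6% of all tested genes. dpy-7, dpy-3 and dpy-2 passed the read minimum in 6 mutant libraries each and in 0, 1 and 5 N2 libraries. A test needed 6 libraries of any group, so for none of them were the N2 libraries alone enough. dpy-7 and dpy-3 were tested mainly through the group where they were higher. The count of higher calls therefore gives no support for a rise of the list. dpy-7 rose from 0.058 ± 0.058 to 1.12 ± 0.455 CPM, dpy-2 from 0.825 ± 0.358 to 3.33 ± 0.639 CPM and dpy-10 from 3.84 ± 1.31 to 6.05 ± 0.770 CPM. These collagens are made mainly at molts and were rare in both groups. dpy-3 (1.81) and ptr-23 (1.18), a Patched-related gene, were also called higher, dpy-3 with an adjusted p of 0.112 in replicates 1 to 3 alone. The collagen gene dpy-9 stood at -0.02 and the osmotic response genes osm-11 and gpdh-1 at -0.09 and -0.33, all without a call. dpy-8 and osm-8 were not tested, with 0.200 and 0.111 CPM in N2 and 0.106 and 0.196 CPM in xpf-1.

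**Figure D5:**
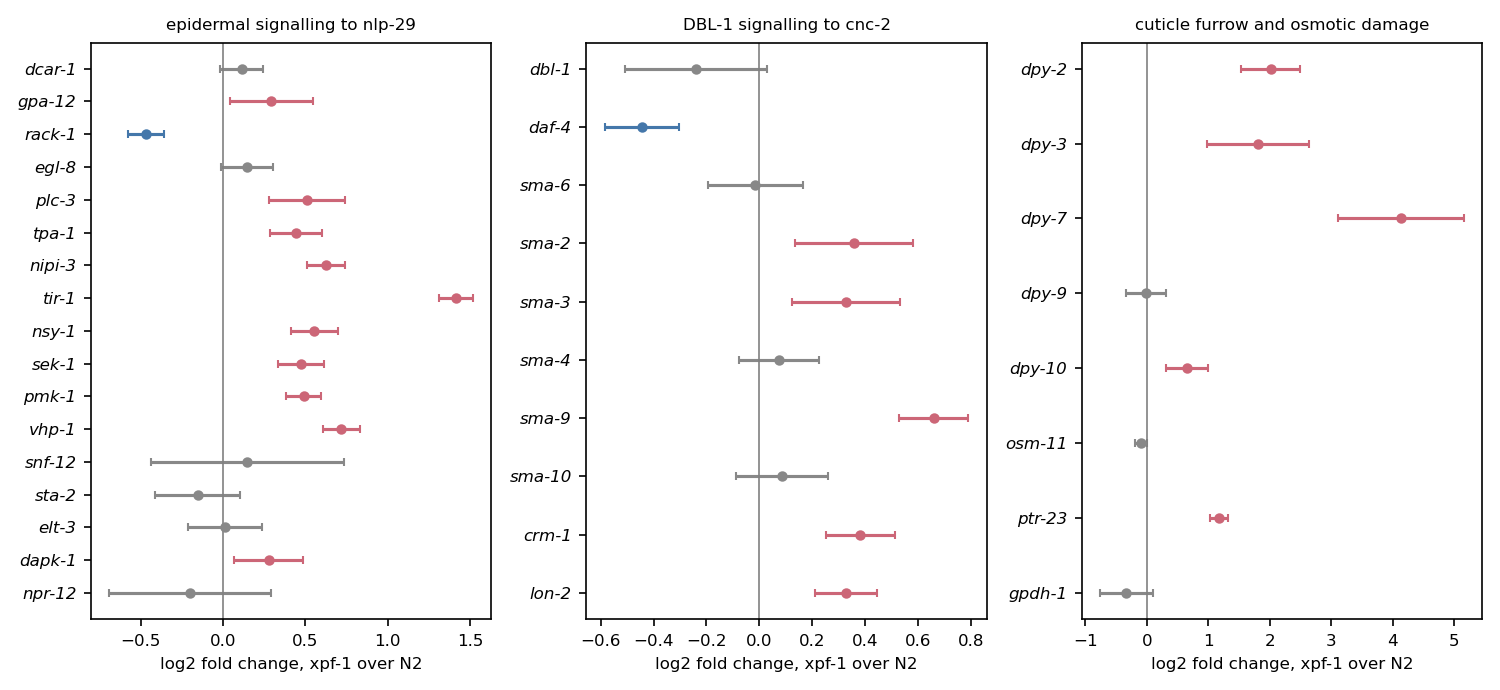
Log2 fold change, mutant over N2, with 95% intervals (x axis, with a separate scale in each panel) for the tested genes of 3 lists: signalling to nlp-29, signalling to cnc-2, and cuticle furrow and osmotic damage. Red marks genes called higher, blue lower and grey no call; tir-1 at 1.42 is the highest of the first list and dpy-7 at 4.13 of the third.

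Markers of several tissues and stages moved between the groups as well, where 30.1% of all tested genes were called higher and 29.6% lower. The adult epidermal collagen gene col-19 went from 254 ± 19.4 to 205.1 ± 14.5 CPM. It was called lower at -0.31, as were the factor genes lin-26 (-0.30) and nhr-23 (-0.64). Called higher were the factor genes nhr-25 (2.03) and elt-1 (1.14), the Patched-related che-14 (1.27) and the cell fusion gene eff-1 (1.04). Of the 12 epidermal markers 11 were in the table, and these 7 were the ones tested, with a median log2 fold change of 1.04. The summed level of the list, most of it col-19 and lin-26, was 384.4 to 418.2 CPM in N2 and 361.4 to 385.5 CPM in xpf-1. The other epidermal markers in the table, col-10, rol-6, bli-1 and wrt-2, were near 0 in every library and were not tested. Of 11 markers of molting larvae 10 were tested and 9 were called higher, with a summed level of 44.0 to 59.1 CPM in N2 and 180.6 to 201.5 CPM in xpf-1, and none was at 0 in all libraries. Of these 9, mlt-11 passed the read minimum in 5 N2 libraries, fewer than the 6 libraries of any group that a test needed.

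All 12 germline and oocyte markers were called lower, from a summed level of 3633 to 4305 CPM in N2 to 1655 to 1970 CPM in xpf-1. Intestinal markers had 3 higher and 2 lower calls among 8 (604.8 to 730.3 CPM in N2, 495.7 to 774.5 CPM in xpf-1), and neuronal markers 2 higher and 0 lower among 8 (309.2 to 335.7 CPM in N2, 320 to 343.7 CPM in xpf-1). With 59.7% of all tested genes called, 30.1% higher and 29.6% lower, the intestinal calls were at about that share and the neuronal ones below it. The part of these marker shifts in the levels of the peptide genes was not tested. The ratios between peptide genes within a library do not use the reads of any other gene, but the part of these shifts in the ratios was not tested either.

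In the authors' deposited table the same 5 of the 10 genes pass the adjusted threshold, where 44.1% of all genes with a value do so. The authors' deposited table gives log2 fold changes of 1.26 for nlp-31, 1.05 for nlp-27, 0.71 for nlp-34, 0.82 for cnc-1 and -0.69 for nlp-30.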

How the data were processed

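Whole-worm RNA was extracted with Trizol and made into libraries with a NEBNext Ultra RNA kit, per the labels' protocols. The submitters' processing notes name build WBcel235 and the tools CASAVA, HISAT2 2.1.0 and featureCounts 1.5.0-p3; strand setting and annotation release were not given in the sources used here. Per gene, the authors deposited raw read counts, FPKM values and a normalised signal (counts divided by library size factors). The authors' own comparison, per the file headers, gives a log2 fold change, a p-value and its adjusted value. Only the deposited counts were tested; the authors' comparison is cited where named.

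Counts were filtered with filterByExpr, TMM-scaled and tested with edgeR 4.0.16 (quasi-likelihood, robust, R 4.3.3) over 14248 genes; the code was tested on simulated data. Log2 CPM for deviations used a prior count of 2. Pair ratios, their background over other genes, and per-kb levels with lengths from a later annotation release were added after seeing the data, and the exact permutation test, planned for genes without enough reads, was run on all 10. The alternatives, 26 per tested gene or 25 for genes under the 5 CPM filter, included DESeq2 1.42.0 and limma-voom (limma 3.58.1).

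The 10 genes and all lists were chosen with earlier results of these data known. Genes named outside the 10 are the relative, pathway and epidermal lists in full, genes between cluster members, and the 5 genes with the highest r to the members' mean deviation. Marker elt-5 was not matched. Planned work on peptide and promoter sequences was not done here. Over all tested genes same-numbered libraries did not deviate together (r from -0.0031 to 0.12), so numbers were not used as pairs.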

Additional observations from a re-analysis of the deposited data

Results flagged for a closer look

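Among the 20 sets of 6 libraries (10 genes in each group), 3 had 1 library whose gap to the nearest other, as a share of the whole range, exceeded the 95% limit of Dixon's test, which chance passes in about 1 set in 20. nlp-27 in N2 replicate 2 was 80.5 CPM, with the next library at 63.2 and the lowest at 53.0. cnc-2 in xpf-1 replicate 2 was 39.1 CPM, with the next at 27.9 and the lowest at 23.2. cnc-5 in xpf-1 replicate 2 was 0.279 CPM, which is 6 reads, with the next at 0.0939. Both libraries numbered 2 also had the highest mean deviation of the peptide genes in their group.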

How the results depend on the processing

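nlp-27 and nlp-31 were called higher in all 26 alternatives, and no tested peptide gene reversed in any of them; every tested gene kept its call in 15. Members called higher numbered 4, and 2 in the test against a 1.5-fold change, 7 with the gene length trend removed and 4 to 5 with 1 library left out. Members called lower numbered 1, and 0 in the 1.5-fold test, 0 with at least 5 CPM in 6 libraries (nlp-30 is then not tested), 0 in replicates 4 to 6 alone and 1 to 2 with 1 library left out (2 without xpf-1 replicate 2, where cnc-2 passes). With the replicate number as a block, 7 members were called higher. Whether the numbers mark pairs is not known, and over all genes same-numbered libraries did not deviate together. Mean deviations of the peptide genes in N2 and xpf-1 were 0.32 and 0.33 in replicate 2 and -0.18 and -0.34 in replicate 6. In replicate 3 they were -0.35 and 0.06. Both fits with 7 added nlp-28, nlp-29 and cnc-4, and the cause was not tested. nlp-34, cnc-1 and nlp-30 lost their calls in the 1.5-fold test (adjusted p 0.325, 0.158 and 0.45) and in replicates 4 to 6 alone (0.0611, 0.207 and 0.241), a test against a larger change and a test on fewer libraries. Over all genes 8509 were called, 1643 in the 1.5-fold test and 8195 to 8594 with 1 library left out. The median log2 fold change of all genes was 0.028, and 0.097 with library totals and 0.103 with upper quartile factors (0.197 in DESeq2 and 0.168 with no low-count filter, both over 26434 genes); under library totals nlp-29 and cnc-4 also pass as higher. Depth limits cnc-5, cnc-1 and nlp-30.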
